A study of Mus musculus with 28 samples.

Results

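Naïve CD4+ T cells were cultured with TGF-β, with IL-4, with both cytokines or with neither, and the RNA of each culture was sequenced to ask which genes respond to the combination in a way that the single cytokines do not foretell. This question was addressed with 12 of the 28 samples of the series, 3 for each of the 4 cultures, all from wild-type (WT) cells. The titles of the 12 say WT only. For another experiment the paper describes WT cells from *Tgfbr1* f/f mice with a tamoxifen-inducible Cre (Ert2-cre) that were treated with oil. Titles of the WT DNase-seq samples of the series also say oil-treated. The same origin is taken here for the 12, whose cells then kept the TGF-β receptor I gene. The mice were 8 to 10 weeks old and of both sexes, on a C57BL/6 background, and the cultures are numbered WT1, WT2 and WT3 (replicates 1, 2 and 3). Whether a number is 1 mouse is not stated in the labels, and p-values measure the spread between these samples. Naïve CD4+ cells of spleen and lymph nodes were purified with magnetic beads. They were stimulated with plate-bound anti-CD3 and soluble anti-CD28 antibodies in every culture, the control included. How long the cultures for RNA-seq lasted is not given in the sources used here. DNase-seq lists of hypersensitive sites (DHSs) from WT control and WT TGF-β + IL-4 cultures, 1 library each, were used as a description, and the knockout cultures were not used.

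TGF-β binds a pair of receptor kinases that phosphorylate Smad2 and Smad3, which then enter the nucleus and act with Smad4 on target genes. IL-4 binds IL-4Rα with the common γ chain and signals through JAK1, JAK3 and STAT6. Each cytokine alone turns a T helper cell in another direction, TGF-β toward Treg cells and IL-4 toward Th2 cells, while together they are the classical condition for Th9 cells, which make IL-9.

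The columns of the RPKM table were read by their position, in the order of the library numbers (control, TGF-β, IL-4, TGF-β + IL-4 of replicate 1, then of replicate 2, then of replicate 3), because the headings disagree with other data of the study. Read counts of 8 WT libraries, those of replicates 1 and 3, are listed by library name in a supplementary table of the study, of which part was at hand, and the genes at 0 in each of them matched 1 column at no less than 99.8% of the genes and every other column at no more than 85.3%. All 8 matched the column that the position gives, and in 6 of the 8 that column carries the heading of another library. The 4 columns of replicate 2 were not in that table and rest on order only. Results are therefore also given for the 8 matched libraries alone, and under the headings as deposited no gene was called in either direction (limma, adjusted p under 0.01 and over 1.5-fold), with 120 of 9794 genes at an unadjusted p under 0.05. *Tgfbr1* was at an RPKM of 3.02 to 3.94 in the 6 control and IL-4 columns and of 13.9 to 20.7 in the 6 columns read as TGF-β and TGF-β + IL-4, with no overlap.

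Total read numbers are not in the table, and the relative depth of the columns, from the steps between low values, ran from 0.826 to 1.66 of that of TGF-β + IL-4 of replicate 3. Between 14557 and 15084 genes were above 0 in a library, and columns of 1 culture correlated at 0.994 or more. T cell markers (*Cd3d*, *Cd3e*, *Cd4*, *Lck* and others, 12 genes) summed to an RPKM of 2314 to 2812 in all libraries. Of 33 markers of other cell types, 1 (*Hbb-b1*) was at 0 in every library, and their sum was 352 to 470.0 in the control, 369 to 466 in the TGF-β and 322 to 426 in the IL-4 cultures, against 530 to 786 in the TGF-β + IL-4 cultures. The groups did not overlap there, with the highest sum in replicate 1. The list held B cell and antigen-presenting cell genes, for example *Cd74*, the invariant chain of MHC class II, at 138 ± 24, 117 ± 16.6, 109 ± 26.3 and 185 ± 61.3 RPKM (SD, n = 3) in control, TGF-β, IL-4 and both, and *Cd79b*, a subunit of the B cell receptor, at 5.61 ± 1.18, 3.6 ± 0.451, 8.9 ± 1.93 and 12.8 ± 3.61. *S100a8*, a neutrophil gene, was at 8.16 ± 4.36, 42.9 ± 10.2, 20.1 ± 8.11 and 66.8 ± 11.6. Of the 20 members of the list that were tested, 16 had an interaction (defined next) above 0, against 49.7% of all tested genes. The median was 0.69, against −0.0010. Only *Cd8a* of the 20 was called, above 0, against 1.42% of all tested genes. *Nkg7*, a member of the list, is also on the list of Th1 and cytotoxic genes used below. In bulk RNA, fewer cells of a type and less RNA per cell cannot be told apart.

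**Figure D1:**
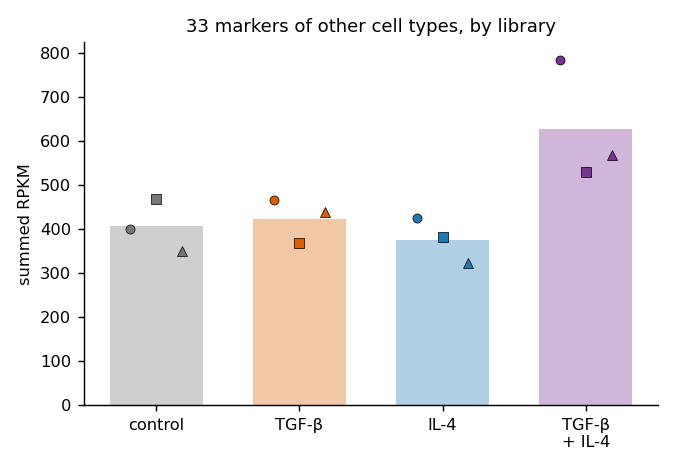
Summed RPKM of 33 markers of B cells, myeloid cells, CD8 T cells, NK cells and red blood cells in the 12 WT libraries. Bars are means of 3 libraries, and circles, squares and triangles are replicates 1, 2 and 3. The 3 TGF-β + IL-4 libraries lie at 530 to 786, above the other 9, which lie at 322 to 470.0.

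The interaction of a gene was the effect of adding TGF-β when IL-4 was present minus its effect when IL-4 was absent, on log2(RPKM + 1). It is 0 where the fold changes of RPKM + 1 with the 2 cytokines multiply. It is above 0 where the cells with both cytokines held more RNA of the gene than that, and below 0 where they held less. In genes of low RPKM this is not the same as a product of the folds of RPKM itself. Of 24089 genes, 9794 had a mean RPKM of 1 or more and were tested. With limma (Benjamini-Hochberg adjusted p under 0.01 and an interaction over 1.5-fold), 139 genes, 1.42% of those tested, were called above 0 and 34, 0.347%, below 0. The median interaction of all tested genes was −0.0010. A difference between 2 cultures is called a rise or fall where its own adjusted p in the same fit was under 0.01. All 173 called genes had the same sign within all 3 replicate numbers, which the call itself favours. In the 8 matched libraries alone, 77 genes (0.786% of 9799) were called above 0 and 14 (0.143%) below 0. Of the 139 genes, 70 were called there as well and all 139 kept their sign, and of the 34 genes, 11 were called there and all 34 kept their sign. These 8 are among the 12 libraries that made the calls, so kept signs and calls are favoured and are no replication.

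An interaction above 0 arose in more than 1 way. In 81 of the 139 genes (58.3%, against 35.6% of all tested genes) the mean with both cytokines was higher than that of control and of either cytokine alone, which is called synergy here. In the other 58 it was not, and these are a remainder of more than 1 pattern. In 22 of the 81 synergy genes TGF-β + IL-4 was also higher by over 1.5-fold at an adjusted p under 0.01 than each of the other 3 cultures in turn. How many of all tested genes passed the same 3 comparisons was not counted. The mean of the control cultures was the highest of the 4 in 47 of the 139 genes (33.8%, against 19.6% of all tested). TGF-β alone was lowest in 69 (49.6%, against 18.2%) and IL-4 alone in 58 (41.7%, against 25.5%). The sign of the contrast itself favours these orders and these comparisons in both sets of called genes, so the shares and counts are a description only. Of the 34 genes below 0, 16 (47.1%, against 31.9% of all tested) were lowest with both cytokines (synergy downward) and 18 were not. One of the 16, *Padi4*, an enzyme that converts arginine to citrulline in proteins, was lower with both cytokines than in each other culture by that same test, and it is named only because it was the single such gene. Its call (interaction −0.70, adjusted p = 0.0078) was lost without any 1 library other than TGF-β or IL-4 of replicate 2 or control of replicate 3. The highest mean was that of IL-4 alone in 20 of the 34 (58.8%, against 25.6%) and of TGF-β alone in 14 (41.2%, against 19.1%). By means of replicates 1 and 3 alone, 80 of the 139 and 16 of the 34 were synergy genes.

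**Figure D2:**
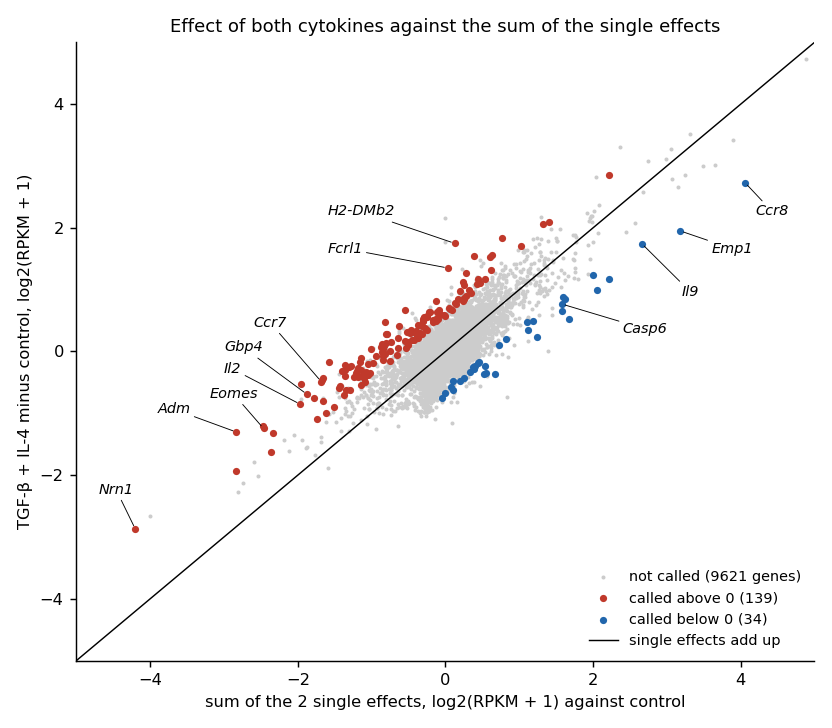
Each point is 1 of 9794 genes in the WT cultures. The horizontal axis is the sum of the differences of TGF-β alone and of IL-4 alone from control, the vertical axis is the difference of TGF-β + IL-4 from control, both in log2(RPKM + 1) over 3 replicates, and the line marks where the single effects add up. The 139 red genes lie above the line and the 34 blue genes below it.

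The largest interaction above 0 was that of *H2-DMb2*, a chain of the H2-DM heterodimer that loads peptides onto MHC class II molecules (mm9 chr17:34280252-34288498). Its RPKM was 7.31, 9.24 and 7.14 in the control cultures of replicates 1, 2 and 3, 8.31, 6.69 and 8.2 with TGF-β, 12.6, 7.52 and 7.15 with IL-4 and 38.2, 22.1 and 28.1 with both. Neither cytokine alone moved it past the test (−0.02 and 0.15), and every TGF-β + IL-4 library lay above the other 9. The interaction was 1.62 ± 0.29 (SE, adjusted p = 0.0049), and 1.51 in the 8 matched libraries (adjusted p = 0.018), where the call was lost. When single libraries were left out, the call was kept without IL-4 of replicate 1, TGF-β + IL-4 of replicate 2 or control of replicate 3 and was lost without any 1 of the other 9. Of the MHC class II genes on the list of other cell types, *H2-Aa* had an interaction of 0.93 (adjusted p = 0.13) and *Cd74* of 0.96 (adjusted p = 0.063), and neither was called. Their part in the result was not tested.

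*Fcrl1*, an Fc receptor-like membrane protein known from B cells, took opposite directions with the single cytokines. It was at 7.34, 7.33 and 6.77 in control, 17.7, 15.7 and 16.1 with TGF-β, 2.44, 3.24 and 3.03 with IL-4 and 20.4, 20.6 and 18.3 with both, so that the 4 groups did not overlap. It rose with TGF-β (1.10 on the log2 scale, adjusted p = 5.8e-07), fell with IL-4 (−1.07, adjusted p = 4.9e-06) and was 1.35 above control with both. The interaction was 1.32 ± 0.12 (adjusted p = 7.3e-05) and was called in the 8 matched libraries too (1.30). The B cell marker *Ms4a1*, given further on, had its highest mean in control, at low values. Those of *Cd79b* and *Cd74*, given above, were highest with both cytokines. The part of B cells in this result was not tested. *AW112010*, an immune cell transcript, was at 211, 192 and 211 in control, 93.8, 92.5 and 106 with TGF-β, 250.2, 263 and 220.3 with IL-4 and 274, 271 and 313 with both. TGF-β lowered it in the absence of IL-4 (−1.07, adjusted p = 4.9e-07), but with IL-4 present the cultures with TGF-β lay above all others, and the interaction was 1.29 ± 0.11 (adjusted p = 6.6e-05).

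Genes with a lower mean with each cytokine alone than in control made up another part of the 139. *Adm*, which encodes the vasoactive peptide adrenomedullin, was at 4.7, 3.19 and 4 in control and 0.438 to 1.43 in the other 9 libraries. Both single effects passed the test (−1.58 for TGF-β and −1.26 for IL-4), the difference of both from control was −1.30, and the interaction was 1.53 ± 0.19 (adjusted p = 0.00053). *Nrn1*, neuritin, fell from 33.8, 29.4 and 29.9 in control to 4.95, 5.71 and 5.93 with TGF-β, 8.73, 7.93 and 6.13 with IL-4 and 3.55, 2.99 and 3.59 with both. It was lowest with both cytokines and yet 1.33 ± 0.15 above the sum of the single effects in log2(RPKM + 1) (adjusted p = 0.00041). *Eomes*, a T-box factor of cytotoxic and memory T cells, was at 4.49, 3.26 and 5.63 in control, 0.592, 0.478 and 0.763 with TGF-β, 2.16, 2.85 and 1.83 with IL-4 and 1.02, 1.49 and 1.31 with both. All TGF-β + IL-4 libraries lay above the TGF-β libraries and below those of control, the interaction was 1.22 ± 0.22 (adjusted p = 0.0049), and the call was kept in the 8 matched libraries. It was also kept without TGF-β + IL-4 of replicate 1, control or IL-4 of replicate 2, or control or TGF-β of replicate 3, and was lost without any 1 of the other 7. *Gm6904*, a gene model with no described role, had an interaction of 1.41 from low levels (0.194 to 2.87 RPKM). Its call was lost in the 8 matched libraries (adjusted p = 0.016), with a pseudocount of 0.1 (adjusted p = 0.024), with quantile normalization (adjusted p = 0.012) and without any 1 of control or IL-4 of replicate 1, IL-4 or TGF-β + IL-4 of replicate 2, or control, IL-4 or TGF-β + IL-4 of replicate 3.

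**Figure D3:**
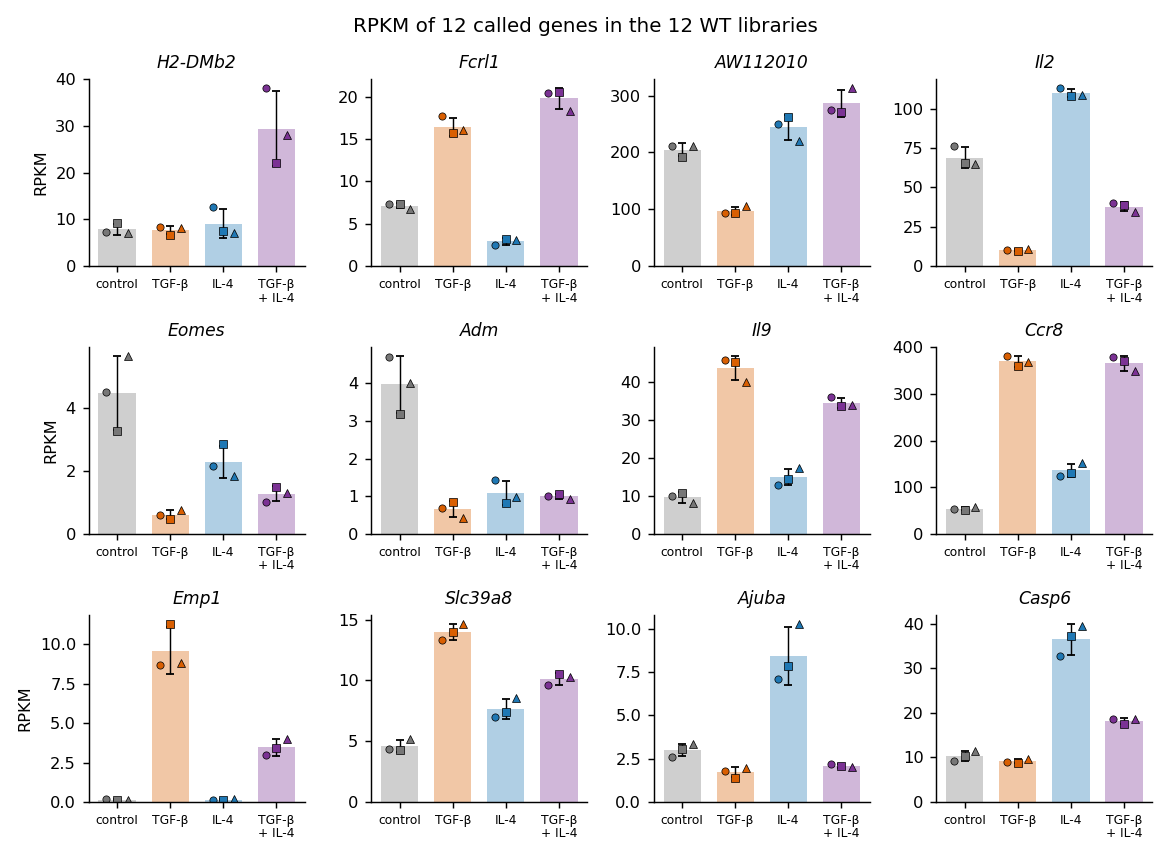
RPKM of 12 called genes in the WT cultures with neither cytokine, with either 1 alone and with both. Bars are means, error bars are SD (n = 3), and circles, squares and triangles are replicates 1, 2 and 3. The first 6 genes have an interaction above 0 and the last 6 one below 0. *Il9* is highest with TGF-β alone at a mean of 43.7, and *Casp6* with IL-4 alone at 36.5.

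Below 0, the largest interaction was that of *Ccr8*, a chemokine receptor of Th2 and Treg cells (mm9 chr9:120001251-120004024). Its RPKM was 53.7, 50.9 and 58.1 in control, 381, 359 and 368 with TGF-β, 125, 131 and 153 with IL-4 and 379, 370.1 and 348 with both. Each cytokine alone raised it (2.75, adjusted p = 3.1e-11, and 1.31, adjusted p = 2.8e-07), and the libraries with both overlapped those with TGF-β alone. The interaction was −1.33 ± 0.10 (adjusted p = 3.5e-05) and was called under the 8 matched libraries as well (−1.33, adjusted p = 0.0014).

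In a group of genes that TGF-β induced, the cultures with IL-4 added held less. *Emp1*, a membrane protein of the PMP22 family, was at 0.0976 to 0.178 in the control and IL-4 libraries, 8.7, 11.3 and 8.82 with TGF-β and 2.95, 3.44 and 4.02 with both, an interaction of −1.23 ± 0.15 (adjusted p = 0.00046). *Hbegf*, a ligand of the EGF receptor, rose by 1.41 with TGF-β (adjusted p = 1.1e-06) and was 0.52 above control with both, with an interaction of −1.16 (adjusted p = 0.0012, and 0.011 in the 8 matched libraries, where the call was lost). *Fam129b* was also highest with TGF-β alone, at mean RPKM of 1.03, 9.87, 0.776 and 3.6 in control, TGF-β, IL-4 and both, and its call was lost with a pseudocount of 0.1 (adjusted p = 0.030). *Slc39a8*, a zinc importer, rose with each cytokine alone, to 13.4, 14 and 14.7 with TGF-β and 7.01, 7.44 and 8.56 with IL-4 from 4.35, 4.28 and 5.16, and stood between them at 9.58, 10.5 and 10.3 with both (interaction −1.06 ± 0.11, adjusted p = 0.00027).

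Other genes were induced by IL-4 alone, and this rise was smaller or not seen when TGF-β was present. *Casp6*, an executioner caspase, was at 9.17, 10.4 and 11.3 in control, 9.07, 8.68 and 9.65 with TGF-β, 32.7, 37.3 and 39.5 with IL-4 and 18.5, 17.4 and 18.6 with both, without overlap between IL-4, both cytokines and the rest. Its interaction was −0.81 ± 0.11 (adjusted p = 0.0014), and the call was lost in the 8 matched libraries (adjusted p = 0.018). *Ajuba*, a LIM domain scaffold protein, rose from 2.6, 3.06 and 3.34 to 7.08, 7.88 and 10.3 with IL-4 and was at 2.21, 2.05 and 1.99 with both. Its interaction was −1.04 ± 0.17 (adjusted p = 0.0032), and the call was lost in the 8 matched libraries (adjusted p = 0.016) and without control of replicate 1, TGF-β of replicate 3 or TGF-β + IL-4 of replicate 3. *Pla2g12a*, a secreted phospholipase A2, rose by 0.89 with IL-4 (adjusted p = 4.5e-05) and its interaction was −1.02 ± 0.13 (adjusted p = 0.00072).

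**Figure D4:**
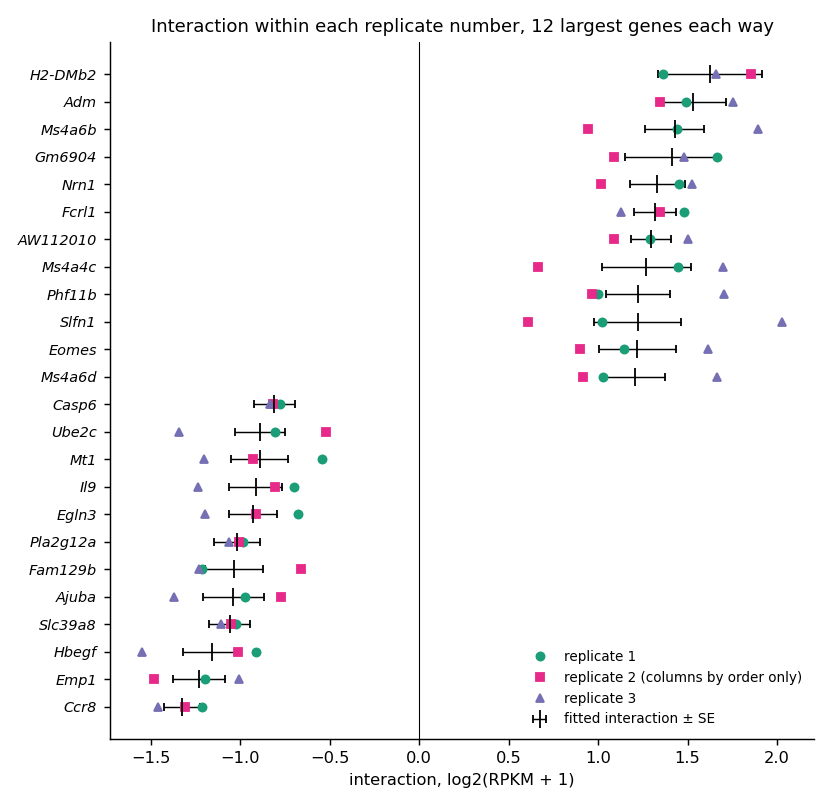
Interaction in log2(RPKM + 1) within each replicate number (coloured marks) and fitted over the 12 WT libraries (black, ± SE) for the 12 genes with the largest interaction above 0 and the 12 with the largest below 0, called and of 1 sign in all 3. The columns of replicate 2 rest on their order only. Fitted values run from 1.62 in *H2-DMb2* to −1.33 in *Ccr8*.

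Among 17 tested genes of the Th9 and Th2 programs, 2 were called below 0, *Il9* and *Ccr8*, against 0.347% of all tested genes, none was called above 0, and the median interaction was −0.22. *Il9*, which encodes the signature cytokine of Th9 cells (mm9 chr13:56580638-56583607), was at 9.93, 10.9 and 8.15 in control, 45.9, 45.2 and 40.1 with TGF-β, 13, 14.6 and 17.4 with IL-4 and 36.1, 33.6 and 34.1 with both. The cultures with both cytokines were all above those with IL-4 alone and all below those with TGF-β alone. The paper states that T cells do not transcribe *Il9* with either cytokine by itself. In these libraries *Il9* RNA was above control with each alone, and the reason for this difference was not tested. TGF-β alone raised *Il9* by 2.07 ± 0.11 on the log2 scale (adjusted p = 1.6e-08), IL-4 alone by 0.58 ± 0.11 (adjusted p = 0.0043) and both by 1.75 ± 0.11 (adjusted p = 7.8e-08), while both against TGF-β differed by −0.33 ± 0.11 (adjusted p = 0.04). The interaction was −0.91 ± 0.15 (adjusted p = 0.0032). It was −0.97 in the 8 matched libraries (adjusted p = 0.017), which ended the call, as did leaving out TGF-β + IL-4 of replicate 3. *Gata3*, the master factor of Th2 cells, named here after its values were seen, was at 21.2 ± 1.64 RPKM in control, 10.6 ± 1.05 with TGF-β, 71.8 ± 3.19 with IL-4 and 33 ± 0.623 with both (SD, n = 3). Its interaction was −0.16 ± 0.10 and was not called (adjusted p = 0.32). *Batf* and *Spi1*, transcription factors of Th9 cells, had interactions of −0.39 (adjusted p = 0.03) and 0.63 (adjusted p = 0.13), and neither was called.

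Of the 5 factors that the study singled out, *Il9* was the only one called, below 0, against 0.347% of all tested genes. The study picked out *Stat5a*, *Dbp* and *E2f8* with these data in hand, so their values here are no independent evidence of a direction. Its other evidence on them, by RT-PCR, Western blot, chromatin immunoprecipitation, knockdown and overexpression, was not used here. *Stat5a*, a signal transducer of the IL-2 family of cytokines, was at 114, 125 and 112 in control, 171, 173 and 147 with TGF-β, 146, 146 and 151 with IL-4 and 248, 262 and 255 with both. It was highest with both cytokines in every replicate, and its interaction of 0.30 ± 0.09 was not called (adjusted p = 0.045). *Dbp*, a PAR bZIP factor under circadian control, was at 2.63 ± 0.343, 5.94 ± 0.866, 2.64 ± 0.694 and 8.66 ± 0.924 in control, TGF-β, IL-4 and both, with an interaction of 0.49 ± 0.19 (adjusted p = 0.12). *E2f8*, a repressor of the E2F family, was at 6.46 ± 0.171, 6.51 ± 0.942, 7.85 ± 0.98 and 5.05 ± 0.447, with −0.55 ± 0.14 (adjusted p = 0.027). *Smad3* was at 3.37 ± 0.345, 5.61 ± 0.522, 4.48 ± 0.282 and 4.95 ± 0.471, with −0.48 ± 0.12 (adjusted p = 0.028).

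The 2 lists of signalling pathway genes held 1 called gene each. Interactions above 0 were found in 16 of 20 tested IL-4 receptor, STAT and SOCS genes. They were found in 11 of 16 tested TGF-β receptor, Smad and feedback genes, against 49.7% of all tested genes. Of 20 tested IL-4 receptor, STAT and SOCS genes, 1 was called above 0, against 1.42% of all tested genes, and none below 0 (median 0.27, against −0.0010 over all tested genes). That gene was *Stat4*, the STAT of IL-12 signalling, at 27.3, 23.8 and 27.9 in control, 6.1, 4.5 and 5.3 with TGF-β, 22.3, 22.6 and 22.4 with IL-4 and 8.73, 10.5 and 10.7 with both. TGF-β lowered it without IL-4 (−2.12, adjusted p = 6e-09), all libraries with both cytokines lay above those with TGF-β alone, and the interaction was 1.02 ± 0.14 (adjusted p = 0.001). Of 16 tested TGF-β receptor, Smad and feedback genes, 1 was called above 0, against the same 1.42%, with a list median of 0.12. It was *Tgfbr3* (betaglycan, a co-receptor), at 8.69, 9.57 and 9.59 in control, 8.53, 8.63 and 7.09 with TGF-β, 6.95, 5.51 and 7.35 with IL-4 and 10.9, 13.8 and 13.7 with both. It was highest with both cytokines in every replicate (interaction 1.04 ± 0.16, adjusted p = 0.002), and the call was lost in the 8 matched libraries (adjusted p = 0.016). *Tgfbr1*, named after its values were seen, rose by 1.85 with TGF-β and by 2.27 with both, and its interaction of 0.25 ± 0.09 was not called (adjusted p = 0.11).

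The Th1 and Treg lists held called genes with an interaction above 0 and none below 0. Of 21 tested Th1 and cytotoxic genes, 3 were called, against 1.42% of all tested genes, *Eomes*, *Stat4* and *Il12rb2*, and the median was 0.38, against −0.0010 over all tested genes. *Il12rb2*, a chain of the IL-12 receptor, was at 10.7, 12.8 and 12.3 in control, 4.95, 5.05 and 4.84 with TGF-β, 7.45, 9.3 and 9.7 with IL-4 and 5.78, 5.82 and 6.07 with both. Its interaction of 0.61 ± 0.12 lay just past the threshold (adjusted p = 0.0098), and it was not called in the 8 matched libraries (adjusted p = 0.055) or without any 1 library other than IL-4 of replicate 3.

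Of 20 tested Treg and TGF-β induced genes, 3 were called above 0, against 1.42% of all tested genes, and the median was 0.29, against −0.0010. In the 8 matched libraries 1 of the list was called above 0, against 0.786% of all genes tested there. *Itgae*, the αE integrin CD103, was at 0.363, 0.206 and 0.196 in control, 4.1, 4.6 and 3.98 with TGF-β, 0.429, 0.365 and 0.392 with IL-4 and 7, 8.69 and 8.76 with both. IL-4 alone differed from control by 0.16 (adjusted p = 0.38), and with both cytokines it was 0.80 above TGF-β alone (adjusted p = 5.5e-05). The interaction of 0.65 ± 0.13 (adjusted p = 0.0076) depended on the added constant at these low values, and the call was lost in the 8 matched libraries (adjusted p = 0.041), with any 1 library left out other than TGF-β + IL-4 of replicate 1 or TGF-β of replicate 2, and with a pseudocount of 0.1. *Lag3*, an inhibitory receptor, was at 89.9, 98.4 and 98.9 in control, 44.5, 43.7 and 39.4 with TGF-β, 132, 141 and 137 with IL-4 and 109, 118 and 108 with both, with an interaction of 0.86 ± 0.08 (adjusted p = 0.0001). *Cd83*, an activation marker, had the same order of means, at mean RPKM of 23.1, 9.25, 45 and 33 in control, TGF-β, IL-4 and both, and its call was lost in the 8 matched libraries (adjusted p = 0.013). *Foxp3*, the master factor of Treg cells, named after its values were seen, was at 5.7 ± 0.447, 64.3 ± 8.15, 1.92 ± 0.0725 and 33.7 ± 1.99, and its interaction of 0.29 ± 0.12 was not called (adjusted p = 0.14).

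Of 26 tested activation cytokines and immediate early factors, 4 were called above 0, against 1.42% of all tested genes, and none below 0, against 0.347% (median 0.22, against −0.0010). *Il2*, the growth factor of activated T cells, was at 76.6, 65.7 and 64.9 in control, 10.3, 9.75 and 10.6 with TGF-β, 113, 108 and 109 with IL-4 and 40.3, 38.5 and 34.5 with both, and the 4 groups did not overlap. The effect of TGF-β was −2.64 on the log2 scale without IL-4 (adjusted p = 3.9e-11) and −1.52 with IL-4 present (adjusted p = 7.3e-09), an interaction of 1.12 ± 0.10 (adjusted p = 7.3e-05). On RPKM itself the sign turned: the difference of differences was −13.6 RPKM, because the fall from IL-4 to both is larger in RPKM and smaller as a fold. *Serpinb6b*, a serine protease inhibitor named for this reason alone, was the other of 2 genes among the 139 whose sign turned on RPKM. *Ltb*, lymphotoxin β, was at 287, 267 and 303 in control, 381, 394 and 371 with TGF-β, 191, 193 and 143 with IL-4 and 427, 404 and 416 with both (interaction 0.83 ± 0.13, adjusted p = 0.0024). *Jun*, a subunit of AP-1, was raised by TGF-β (0.59), lowered by IL-4 (−0.34) and highest with both (1.07), with an interaction of 0.81 ± 0.09 (adjusted p = 0.00023). *Nr4a1*, an orphan nuclear receptor induced by the T cell receptor, was highest in control and had an interaction of 0.68 ± 0.12 (adjusted p = 0.0037), lost in the 8 matched libraries (adjusted p = 0.023) and without control or TGF-β + IL-4 of replicate 1, or TGF-β or TGF-β + IL-4 of replicate 3.

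The guanylate-binding proteins are GTPases of host defence that interferons induce, and their genes lie in clusters. Of their 11 genes, a list made after values were seen, 10 were called above 0, against 1.42% of all tested genes, and the remaining one, *Gbp7*, had an interaction of 0.72 (adjusted p = 0.023). The median interaction was 0.98, and 9 were called above 0 in the 8 matched libraries, against 0.786% of all genes tested there. The call of *Gbp5* was lost there and without any 1 library other than TGF-β + IL-4 of replicate 2. The genes share long near-identical stretches and reads that map to several of them were removed upstream, so the split between members is uncertain and they are not independent of each other. *Gbp4* was at 48.2, 46.1 and 53.4 in control, 15.5, 14.4 and 15.1 with TGF-β, 42.5, 42.3 and 40.9 with IL-4 and 29.3, 29.3 and 31.5 with both, without overlap between TGF-β, TGF-β + IL-4 and the rest (interaction 1.18 ± 0.08, adjusted p = 1.4e-05). *Gbp2*, the member with the highest RPKM, was at 337, 311 and 365 in control, 176, 176 and 184 with TGF-β, 248, 252 and 220.0 with IL-4 and 268, 258 and 284 with both (interaction 1.08 ± 0.09, adjusted p = 6.6e-05). In the median of the 11 genes, TGF-β alone lay −0.84 from control, IL-4 alone −0.40 and both −0.26. *Gbp6* and *Gbp10* were the called members with a mean above control with both (0.14 and 0.12), at adjusted p of 0.15 and 0.24 for that difference.

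The 250 bases before the start of each gene were read from RefSeq (GRCm38.p6), which had a promoter for 5 of the 11 genes, 97 of the 139 called above 0, 26 of the 34 called below 0 and 7452 of all 9794 tested. The core of the interferon-stimulated response element (ISRE), GAAANNGAAA on either strand, was found in all 5 of the guanylate-binding protein promoters, in 14 of the 97 (14.4%), in 2 of the 26 (7.69%) and in 2.78% of all 7452. The 14 included *Gbp2*, *Gbp2b*, *Gbp3*, *Gbp5*, *Phf11a* and *Phf11b*, so the first 2 of these shares partly count the same genes. Guanylate-binding protein genes on chromosome 5 had no promoter among those read, and all 5 with one lie on chromosome 3. The 60 bases around the match nearest to the start are shown for these 5 genes and for *Phf11a* and *Phf11b*, a neighbouring pair of called interferon-induced genes whose windows are nearly alike, with the matched bases in capitals, 5′ to 3′ on the strand of the gene.
Gbp2 (chr3:142620579-142620638, plus strand): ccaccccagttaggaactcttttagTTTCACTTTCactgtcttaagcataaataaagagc
Gbp2b (chr3:142594685-142594744, plus strand): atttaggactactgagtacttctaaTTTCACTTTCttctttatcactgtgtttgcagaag
Gbp3 (chr3:142559980-142560039, plus strand): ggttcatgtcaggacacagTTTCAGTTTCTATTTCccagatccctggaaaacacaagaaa
Gbp5 (chr3:142496744-142496803, plus strand): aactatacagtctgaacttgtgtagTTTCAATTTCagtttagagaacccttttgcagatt
Gbp7 (chr3:142530258-142530317, plus strand): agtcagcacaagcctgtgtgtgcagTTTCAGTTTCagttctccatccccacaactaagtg
Phf11a (chr14:59297523-59297582, minus strand): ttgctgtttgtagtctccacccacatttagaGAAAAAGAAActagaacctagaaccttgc
Phf11b (chr14:59341346-59341405, minus strand): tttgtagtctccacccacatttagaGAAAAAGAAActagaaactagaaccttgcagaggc
In *Gbp3* 2 matches overlap, and in the other 6 there is 1. Another 4 motifs were searched in the same windows and on both strands, and a stretch can match more than 1 of the 5. The gamma-activated site TTCNNNGAA was found in 11.3% of the promoters of genes called above 0, 11.5% of those called below 0 and 6.32% of all. The STAT6 site TTCNNNNGAA was found in 5.15%, 7.69% and 4.59%, the Smad palindrome GTCTAGAC in 0 of 97, 1 of 26 (*Cenpp*, named as the single case) and 0.161%, and the cell cycle element CHR (TTTGAA) in 21.6%, 26.9% and 10.6%. Base composition was not matched between these sets, and a match of letters is not a bound site.

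Of 50 tested other interferon-stimulated genes, a list also made after values were seen, 6 were called above 0, against 1.42% of all tested genes. None was called below 0, and the median was 0.24. In the 8 matched libraries 2 of the list were called above 0, against 0.786% of all genes tested there. *Zbp1*, a sensor of Z-form nucleic acid, was at 56.5, 58.3 and 54.7 in control, 23.8, 24.8 and 25.3 with TGF-β, 60.9, 62.5 and 50 with IL-4 and 42.7, 41.9 and 52.5 with both (interaction 0.83 ± 0.13, adjusted p = 0.0022, and 0.011 in the 8 matched libraries, where the call was lost). *Samhd1*, a dNTP hydrolase that restricts viruses, was instead highest with both, at 78.5, 77.6 and 90.7 against 55.5, 50.4 and 59.9 in control (interaction 0.85 ± 0.13, adjusted p = 0.002). *Slfn1*, a Schlafen family member, was also highest with both, at 42.6, 45.8 and 56 against 19.7 to 35.4 in the other 9 libraries, but its interaction ranged widely between the replicate numbers (fitted 1.22 ± 0.24, adjusted p = 0.0087), and the call was lost without any 1 library other than IL-4 of replicate 2 or of replicate 3. *Phf11b* was at 11.3 ± 0.502, 4.5 ± 0.566, 7.81 ± 1.72 and 8.08 ± 0.688, *Phf11a* had an interaction of 0.88, and reads of these 2 may be split between them. Both calls were lost in the 8 matched libraries, and that of *Phf11a* without any 1 library other than IL-4 of replicate 2 or TGF-β of replicate 3. *Ifih1*, a sensor of double-stranded RNA, was at 5.37 ± 0.287, 1.59 ± 0.202, 4.13 ± 0.224 and 2.19 ± 0.0897, with 0.62 ± 0.10 (adjusted p = 0.0032). Its call was lost in the 8 matched libraries (adjusted p = 0.037), with quantile normalization, where it fell short of 1.5-fold, and without control of replicate 1, or control, TGF-β or TGF-β + IL-4 of replicate 3.

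Genes of naïve and memory T cells and of homing to lymph nodes lay mostly above 0 as well. Of 22 tested, 4 were called above 0, against 1.42% of all tested genes, and none below 0. An interaction above 0 was found in 21, against 49.7% of all tested genes, and the median was 0.31, against −0.0010. *Ccr7*, the chemokine receptor that brings T cells into lymph nodes, was at 814, 766 and 788 in control, 457, 468 and 438 with TGF-β, 441, 444 and 396 with IL-4 and 543, 555 and 593 with both. Each cytokine lowered it (−0.80 and −0.89), and with both it was higher than with either, at an interaction of 1.20 ± 0.08 (adjusted p = 1.4e-05, and 0.00084 in the 8 matched libraries). *Tcf7*, which encodes the factor TCF-1, was at 64.6, 56.7 and 64 in control, 40, 44.1 and 40.9 with TGF-β, 54.7, 61.4 and 47.4 with IL-4 and 64.2, 66.4 and 75.4 with both (interaction 0.89 ± 0.13, adjusted p = 0.0014). *Dapl1*, a gene of resting T cells, and *Itga4*, the α4 integrin, had interactions of 1.08 and 0.78 (adjusted p = 0.00086 and 0.0012), and both calls were lost in the 8 matched libraries. Of the T cell markers, *Cd28*, the costimulatory receptor, was called above 0 (0.73 ± 0.09, adjusted p = 0.00047) and *Cd2*, an adhesion receptor, below 0 (−0.64 ± 0.08, adjusted p = 0.00062), and both calls stood in the 8 matched libraries.

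The Ms4a genes encode membrane proteins of the CD20 family. Of 6 tested, on a list made after values were seen, 3 were called above 0, against 1.42% of all tested genes. The interaction of all 6 was above 0, against 49.7% of all tested genes, with a median of 1.20. *Ms4a6b* was at 119, 116 and 136 in control, 51.6, 59.5 and 61.9 with TGF-β, 67.7, 79.5 and 55.7 with IL-4 and 80.9, 79.4 and 96.1 with both. It was highest in control, and the interaction was 1.43 ± 0.17 (adjusted p = 0.00041). *Ms4a4c* and *Ms4a6d* had interactions of 1.27 and 1.20 (adjusted p = 0.0081 and 0.0014), and the first lost its call in the 8 matched libraries and without any 1 library other than IL-4 of replicate 2 or of replicate 3. *Ms4a1*, which encodes CD20 itself and marks B cells, was at 2.82 ± 0.71, 1.26 ± 0.291, 1.51 ± 0.97 and 1.66 ± 0.873 RPKM in control, TGF-β, IL-4 and both, and was not called (adjusted p = 0.19). *Cd8a*, a marker of CD8 T cells, was at 5.78 ± 0.333, 5.23 ± 0.305, 5.78 ± 0.514 and 8.49 ± 0.371 with an interaction of 0.61 ± 0.10 (adjusted p = 0.0033), while *Cd8b1*, its partner chain, had 0.12 (adjusted p = 0.51). The call of *Cd8a* was lost in the 8 matched libraries (adjusted p = 0.021) and without control, TGF-β or TGF-β + IL-4 of replicate 1, or IL-4 of replicate 3. The cells had been purified as naïve CD4+ cells with magnetic beads, and what the other cell types contribute to these values was not tested.

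Of the lists, that of mitosis genes had the most members called below 0. Of 28 tested, 6 were called below 0, against 0.347% of all tested genes, and none above 0. All 28 interactions were below 0, against 4923 of the 9794 tested genes. Their median was −0.51, against −0.0010. In the 8 matched libraries 2 were called below 0, against 0.143% of all genes tested there, and the median was −0.65, against −0.0040. The called genes were *Ube2c*, the ubiquitin-conjugating enzyme of the anaphase-promoting complex, *Ccna2* (cyclin A2), *Cdk1*, *Aurka* (Aurora kinase A), *Kif23* (a kinesin of cytokinesis) and *Hmmr* (a spindle protein). *Ube2c* was at 69.4, 67.1 and 55.8 in control, 73.4, 63.2 and 65.3 with TGF-β, 87.3, 84.6 and 95.6 with IL-4 and 52.4, 55.1 and 43.5 with both. The IL-4 libraries were all above the rest and the libraries with both cytokines all below, at an interaction of −0.89 ± 0.14 (adjusted p = 0.0024). *Cdk1* was at 39.2, 38.9 and 35.6 in control, 36.4, 34.8 and 33.8 with TGF-β, 46.2, 49.6 and 50.8 with IL-4 and 30.2, 28.3 and 25.3 with both, again highest with IL-4 and lowest with both (interaction −0.68 ± 0.09, adjusted p = 0.0012). The interactions of *Ccna2*, *Aurka*, *Kif23* and *Hmmr* were −0.68, −0.68, −0.64 and −0.63. The calls in the 8 matched libraries were those of *Ube2c* and *Hmmr*. No single left-out library ended the call of *Ube2c* or *Cdk1*. That of *Kif23* was lost without control or TGF-β of replicate 1, or IL-4 or TGF-β + IL-4 of replicate 3. That of *Ccna2* was kept without control or IL-4 of replicate 1, TGF-β or TGF-β + IL-4 of replicate 2, or TGF-β of replicate 3, and lost without any 1 of the other 7. That of *Aurka* was kept without IL-4 or TGF-β + IL-4 of replicate 1, or TGF-β or IL-4 of replicate 2, and lost without any 1 of the other 8. That of *Hmmr* was kept without TGF-β or IL-4 of replicate 2 and lost without any 1 of the other 10. In the median of the 28 genes, TGF-β alone lay −0.07, IL-4 alone 0.19 and both −0.36 from control. Of 32 tested DNA replication and G1/S genes none was called, 31 (against 4923 of the 9794 tested genes) had an interaction below 0 and the median was −0.26. The largest of them, *Rrm2*, a subunit of ribonucleotide reductase, had −0.62 (adjusted p = 0.018). Genes of a cell cycle list move together, so their number is no count of independent results.

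**Figure D5:**
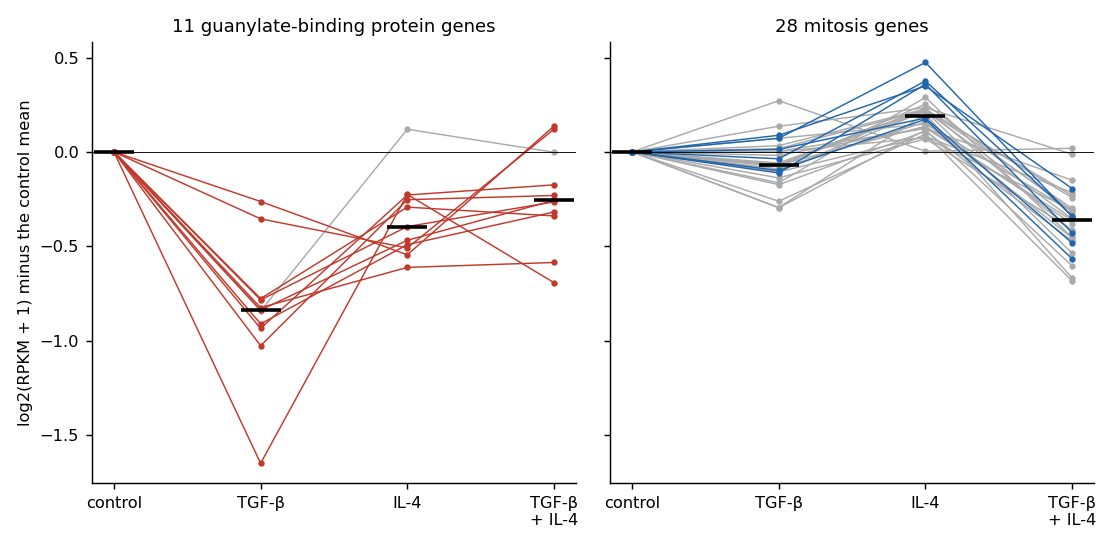
Difference from the control mean in log2(RPKM + 1) for the 11 guanylate-binding protein genes (left) and 28 mitosis genes (right) in the cultures with TGF-β alone, IL-4 alone and both, with 1 line a gene, each point a mean of 3 replicates, and black bars for medians. Red and blue lines are genes called above and below 0 and grey lines are not called. The median of the left group is −0.84 with TGF-β alone and −0.26 with both, and that of the right group 0.19 with IL-4 alone and −0.36 with both.

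Several hydroxylases were less induced by TGF-β when IL-4 was present. Of 22 tested genes of the hypoxia response and of collagen hydroxylation, a list made after values were seen, 4 were called below 0, against 0.347% of all tested genes, and 1, *Adm*, above 0, against 1.42%. In the 8 matched libraries 1 of the list was called below 0, *Plod3*, against 0.143% of all genes tested there, and 1 above 0, against 0.786%. *Egln3*, a prolyl hydroxylase that marks HIF-1α for degradation, was at 4.06, 4.26 and 3.56 in control, 12.3, 14.5 and 13.6 with TGF-β, 3.52, 3.96 and 4.86 with IL-4 and 6.44, 6.74 and 7.19 with both (interaction −0.93 ± 0.14, adjusted p = 0.0018, and 0.018 in the 8 matched libraries, where the call was lost). All libraries with both cytokines lay between those with TGF-β alone and the rest. *Plod2* and *Plod3*, lysyl hydroxylases of collagen, had the same order of means, with interactions of −0.69 and −0.62 (adjusted p = 0.0022 and 0.002). The call of *Plod2* was lost in the 8 matched libraries (adjusted p = 0.016), and that of *Plod3* without control or TGF-β + IL-4 of replicate 3, where it fell short of 1.5-fold. *Mt1*, a metallothionein, was instead lowest with both, at 10.9 ± 0.463 against 14.4 ± 2.12 in control, with −0.89 (adjusted p = 0.0052). Its call was lost in the 8 matched libraries (adjusted p = 0.017) and without any 1 library other than TGF-β or IL-4 of replicate 1 or control of replicate 2. The median of the list was −0.13, and its other 17 tested members were not called.

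DHSs of the 2 WT lists, both numbered WT3 with no stated tie to the RNA-seq cultures of that number, were set beside the calls as a description, since each list is 1 library. The lists held 44298 DHSs for control and 33880 for TGF-β + IL-4, and 9105 of the tested genes had a start in the annotation of the same build (GENCODE vM1, mm9). Within 10 kb of the start, 119 of 132 genes called above 0, 32 of 33 called below 0 and 93.4% of all tested genes had a DHS in both lists. A DHS in the control list alone was found for 9 of the 132 (6.82%), for 0 of the 33 and for 1.44% of all tested genes, and one in the TGF-β + IL-4 list alone for 0, for 1, *Plod2*, and for 0.329%. The 9 included *Cd28*, *Cd8a*, *Dapl1* and *Il12rb2*. Within 50 kb the share in the control list alone fell to 1 of the 132 (0.758%). The control list is the longer of the 2, and no test was made.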

How the data were processed

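RNA-seq libraries were made by the Smart-seq2 method from cultured CD4+ T cells. The authors mapped reads to mm9 with Bowtie2, removed reads with a low mapping quality and redundant reads, and deposited RPKM, that is, reads scaled by gene length and by the mapped reads of each library. DHSs were called by the authors with MACS on each library alone, and each deposited narrow peak list carries the −log10 of the q value, which was not used to filter. No version of Bowtie2 or MACS is given in the sources used here.

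Of the 24 value columns, 12 (WT) were used and 12 (knockout) were not. Columns were assigned by position, as described above, since their headings conflict with read counts of 8 libraries, which served only to match columns. Members, lists and motifs were chosen with earlier results of these data known. The lists of guanylate-binding protein, other interferon-stimulated genes, Ms4a, and hypoxia and hydroxylase genes were made after values were seen.

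RPKM are not counts, so limma 3.58.1 (R 4.3.3) was fitted to log2(RPKM + 1) of the 12 libraries together, moderated with a trend, keeping genes whose mean RPKM reached 1. The pseudocount understates changes of low genes. It can also move their interaction away from 0 where the folds of RPKM itself multiply. A call required an adjusted p (Benjamini-Hochberg, over all tested genes) under 0.01 and a fold over 1.5. Simple differences between cultures come from the same fit, and those with a shared control share its 3 libraries. The script was tested on simulated data. Tables and figures were made with Python 3.11.15, numpy 2.4.6, pandas 2.3.3 and matplotlib 3.10.9.

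Named genes are the 12 largest called interactions in each direction with 1 sign in all 3 replicate numbers, every called member of a list, the 5 factors of the study, and for each list up to 2 uncalled members at either end. Others are marked as named after their values were seen, and so are the members of the marker lists given as values. Some genes and lists that this rule covers are not reported here.

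A fit with the replicate number as a block, other pseudocounts, filters, scalings and moderation, leaving out each library, the 8 matched libraries, the headings, an adjusted p under 0.05, the RPKM scale and DHSs within 50 kb were tried as alternatives.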

Additional observations from a re-analysis of the deposited data

How the results depend on the processing

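The numbers of genes called above and below 0 (139 and 34) were 149 and 36 with a pseudocount of 0.1, 118 and 27 with a minimum mean RPKM of 5, 130 and 39 with scaling by median ratios, 138 and 40 with quantile normalization, and 128 and 29 without a trend. They were 90 and 16 without a filter on low values, 205 and 79 at an adjusted p under 0.05, 77 and 14 in the 8 matched libraries, and 230 and 143 in the 8 matched libraries at an adjusted p under 0.05, an alternative chosen after seeing the data.  Leaving out 1 library gave 90 to 151 and 16 to 40. The count above 0 moved by over 1.5 times without control of replicate 1 (90) or TGF-β + IL-4 of replicate 3 (91), and the count below 0 without control of replicate 1 (18), control of replicate 2 (22), TGF-β of replicate 3 (19), IL-4 of replicate 3 (18) or TGF-β + IL-4 of replicate 3 (16). The cause was not tested.

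Of 65 called genes that the naming rule covers or that were added, 30 kept their call under each of these settings in which they were tested, apart from the headings and the RPKM scale, and all 65 kept their sign. The settings reuse libraries of the main fit, which favours kept signs. With a minimum mean RPKM of 5, 58 of 72 genes (called or not) were tested. The 8 matched libraries lost 29 of the calls, no filter on low values lost 18, moderation without a trend 5, a pseudocount of 0.1 4 and quantile normalization 3, and single left-out libraries lost between 7 and 20. On RPKM itself the sign turned for *Il2* (−13.6 RPKM), *Foxp3* (−26.9, not called) and *Serpinb6b* (−0.943). By their headings 0 genes were called above 0 and 0 below 0, and 71 of the 72 genes so covered changed sign, all but *Gbp5*. This follows from the construction, since the columns so read enter the contrast with net weights opposite to those by position. The 47 genes that were above 0 took values of −0.0030, −0.081, −0.11, −0.12, −0.14, −0.17, −0.20, −0.21, −0.23, −0.25, −0.26, −0.27, −0.28, −0.29, −0.30, −0.33, −0.34, −0.35, −0.37, −0.38, −0.39, −0.40, −0.44, −0.45, −0.52, −0.54, −0.57, −0.59, −0.61, −0.62 or −0.69, and the 24 genes that were below 0 took 0.059, 0.11, 0.15, 0.16, 0.17, 0.20, 0.21, 0.24, 0.25, 0.28, 0.31, 0.33, 0.34, 0.35, 0.36, 0.37, 0.39, 0.40, 0.44, 0.47 or 0.57.

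The labels do not say that a replicate number is 1 mouse. Libraries of 1 number deviated from their culture means with correlations of −0.088 to 0.55 over 18 pairs, 8 of them above 0.1. Pairs of different numbers ran from −0.55 to 0.32. These values do not settle whether the numbers pair the libraries, and the main fit did not pair them. With the number as a replicate block, 138 genes were called above 0 and 64 below 0, among them 133 of the 139 and 33 of the 34, and *Ms4a4c*, *Slfn1*, *Itgae* and *Phf11a* lost their call, each at an adjusted p of 0.011. Of the 12 libraries, 8 correlated most with a library of their own number. The count below 0 was larger with the block, so it depends on whether the libraries are paired.

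With 3 replicates a culture, columns of replicate 2 known by order alone, read totals unknown and 1 DNase-seq library a culture, small interactions and differences in DHSs were not resolvable.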
